A study of Mus musculus with 3 samples.

Results

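The genes described here are 1700010B08Rik, 1700031F10Rik and Tlcd1, 3 of the 31053 genes counted in single-cell RNA-seq of mouse testis. They were chosen by their level in round spermatids, because earlier readings of the same libraries placed them lowest, in both mutants, among genes of at least 50 CPM (UMIs of the gene scaled to a fixed total per class of cells) in summed round spermatids. The lower level in the mutants is therefore what selected them and is given below as a description without a test. Testicular cells came from C57BL/6 males of 3 genotypes, with 1 library each: wild type (WT), a knockout of gonadotropin-regulated testicular RNA helicase (GRTH-KO, or KO), and a knock-in that carries a human GRTH gene with a missense change which abolishes the phosphorylated form (GRTH-KI, or KI). GRTH is the product of Ddx25, and the KI library retains a Ddx25 transcript whereas the KO library all but lacks it. The labels state an age of 8 weeks and separate mice, whereas the methods describe testes pooled within a genotype and a wider age range. Since each genotype has 1 library, no difference between genotypes has a replicate check, and every interval below covers the counting of unique molecular identifiers (UMIs) only.

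GRTH is a DEAD-box RNA helicase of meiotic and haploid male germ cells that takes part in export, storage and translation of mRNA, and males without it are sterile with spermatids that do not elongate. Late in meiosis and in round spermatids, germ cells make many mRNAs that are kept for later use, because transcription ceases once protamines replace histones on the chromatin. A transcript level in a spermatid thus depends on what was carried over from the spermatocyte, on new transcription and on decay. Tlcd1 encodes a membrane protein with a TLC domain that influences the acyl chains of membrane phospholipids. 1700010B08Rik and 1700031F10Rik carry RIKEN clone names, and no role is stated for them here.

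The 3 genes lie on different chromosomes, none of them on chromosome 9, which holds Ddx25. In GRCm38, 1700010B08Rik (ENSMUSG00000057047) is annotated as a protein-coding gene at chr2:173719415-173722089 on the plus strand. Tlcd1 (ENSMUSG00000019437) is protein-coding at chr11:78176711-78181909 on the plus strand. 1700031F10Rik (ENSMUSG00000047046) is an antisense gene at chr6:88222602-88225678 on the minus strand, wholly inside Dnajb8, which runs on the plus strand, and 525 of its exonic bases are also exonic in Dnajb8. The window from 250 bases before to 50 bases after the start is printed for 1700010B08Rik and for the 2 Tlcd1 starts in the RefSeq promoter table, which lie inside the gene as bounded above, because these 2 members were below WT in both mutants already in the earliest spermatids. RefSeq sequences (GRCm38.p6) are given 5′ to 3′, and capitals mark ATTGG, which is CCAAT on the other strand.
1700010B08Rik, chr2:173719165-173719464, plus strand: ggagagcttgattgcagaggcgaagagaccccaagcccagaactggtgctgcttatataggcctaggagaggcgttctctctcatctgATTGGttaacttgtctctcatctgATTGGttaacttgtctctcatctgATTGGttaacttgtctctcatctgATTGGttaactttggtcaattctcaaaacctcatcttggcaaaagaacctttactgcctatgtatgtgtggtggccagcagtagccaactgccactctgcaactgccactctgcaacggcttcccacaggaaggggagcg
Tlcd1, chr11:78177880-78178179, plus strand: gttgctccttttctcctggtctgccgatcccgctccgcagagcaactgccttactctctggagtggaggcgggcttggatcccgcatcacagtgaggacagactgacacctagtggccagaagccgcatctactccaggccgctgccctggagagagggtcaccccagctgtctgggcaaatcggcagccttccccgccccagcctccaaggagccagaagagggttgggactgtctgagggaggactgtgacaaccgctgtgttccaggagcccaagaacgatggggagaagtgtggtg
Tlcd1, chr11:78178408-78178707, plus strand: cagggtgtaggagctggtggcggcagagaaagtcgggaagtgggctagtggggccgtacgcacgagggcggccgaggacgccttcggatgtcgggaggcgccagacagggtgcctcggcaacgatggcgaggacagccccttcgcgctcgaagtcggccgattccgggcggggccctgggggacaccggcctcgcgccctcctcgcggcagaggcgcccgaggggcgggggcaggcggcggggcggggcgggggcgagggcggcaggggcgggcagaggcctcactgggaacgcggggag

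The 1700010B08Rik window holds 4 copies of ATTGG, spaced by 24 bases inside a tandem repeat. Of 32851 promoter windows of this length, 37.4% hold at least 1 CCAAT on either strand and 3.37% hold at least 3. A stretch of 23 bases present 3 times occurred in 0.865% of all windows. Neither Tlcd1 window holds CCAAT, and neither gene's windows hold TGACG (in 20.8% of all windows) or TATAAA (in 13.6%), searched on both strands. AACNG, which 80.3% of all windows hold, has 4 matches in the 1700010B08Rik window, 2 in the first Tlcd1 window and 0 in the other. The windows also differ in base composition, with 48.3% G and C in 1700010B08Rik and 61.7% and 76.0% in Tlcd1.

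The filters kept 5855 WT, 4049 KO and 1568 KI cells, with median depths of 5145, 4023 and 11762 UMIs. The median mitochondrial share of these cells was 0.0585% in WT against 1.64% in KO and 1.33% in KI. Cells were gated by marker UMIs into spermatids (4300, 2157 and 786 cells) and meiotic cells (1132, 1381 and 597). The share of a cell's UMIs from Prm1, Prm2, Tnp1 and Tnp2, the protamine and transition protein genes that mark progress of spermatids, served as stage index. The authors state that mRNA levels of Tnp2 and Prm2 are affected in KI mice, so an equal share need not be an equal stage. Spermatids under 20% of this share, called round spermatids here, numbered 2314, 2157 and 783, and 1978 WT but no KO and 3 KI cells lay between 20% and 40%. Ddx25 had 3167 UMIs in WT spermatids, 2 in KO and 1911 in KI, over unequal total counts. Scaled to CPM, Ddx25 was at 144, 0.106 and 119 in round spermatids and at 211, 0.398 and 84.7 in meiotic cells of WT, KO and KI. Between 8 and 36 kept barcodes were shared by a pair of libraries. Barcodes that held no cell carried 367, 212 and 199 CPM of 1700010B08Rik, 145, 92.1 and 72.7 CPM of Tlcd1 and 53.6, 13.7 and 19.7 CPM of 1700031F10Rik in WT, KO and KI.

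In summed round spermatids, 1700010B08Rik was at 311 CPM in WT (95% exact Poisson interval 303 to 318), 81.1 CPM in KO (77.1 to 85.3) and 82.4 CPM in KI (78.0 to 87.0). This was 3.83-fold lower in KO and 3.77-fold lower in KI, first of 3738 genes by the smaller of both differences. Without cell calling the differences were −1.23 and −1.55 on the log2 scale, against −1.92 and −1.90 here. Tlcd1 was at 147 CPM in WT, 44.7 CPM in KO and 34.7 CPM in KI, 3.29-fold and 4.24-fold lower (−1.70 and −2.05, or −1.09 and −1.72 without cell calling), and came at place 3. 1700031F10Rik was at 42.5 CPM in WT, 18.6 CPM in KO and 15.9 CPM in KI, 2.28-fold and 2.67-fold lower. With the gate used here its mean over the libraries was 25.7 CPM, so it did not pass the 50 CPM filter, and it stood at place 81 among 8591 genes of at least 10 CPM. In that larger set 1700010B08Rik stood at place 10 and Tlcd1 at place 18, and the first gene was at 63.0, 0.372 and 0.685 CPM. The filter is on the mean of the libraries, so it can leave out genes near 0 in both mutants. Of the 3738 genes of at least 50 CPM, 0.803% were at least 2-fold lower in both mutants (a log2 difference of −1 or lower with 1 CPM added), 1.23% in KO and 1.36% in KI, and nothing is read from the 2 members among them, since this contrast chose them. Among the 8591 genes of at least 10 CPM these shares were 1.28% in both, 1.9% in KO and 1.9% in KI, and with no filter 0.85%, 1.23% and 1.46%. In the order of the 3738 genes, those next to 1700010B08Rik and Tlcd1 were Znhit3 (101, 27.3 and 23.8 CPM in WT, KO and KI), 4930455B14Rik (106, 32.2 and 28.0 CPM) and 1700064M15Rik (109, 29.5 and 33.9 CPM), so no gap separates the members from the rest. The median gene of the 3738 differed by 0.08 in KO and 0.11 in KI on the log2 scale.

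1700010B08Rik was already high before the haploid phase, with WT somewhat above both mutants, and the libraries parted further at the step from meiotic cells to spermatids. To follow this, meiotic cells were split into 4 windows by the share of early prophase markers (Sycp1, Sycp3, Hormad1 and Tex101) among their meiotic marker UMIs, from at least 75% in the first to under 25% in the last. Spermatids under 0.5% of the stage share were split into 5 windows by the share of meiotic among meiotic and spermatid marker UMIs, from 30 to 50% in the first to under 5% in the last. In WT, 1700010B08Rik was at 88.0, 270.3, 492 and 575 CPM in the successive meiotic windows. KO had 65.2, 183, 382 and 418 CPM, and KI had 66.8, 199, 430 and 525 CPM. The build-up through meiosis was thus present in all 3 libraries. Over all meiotic cells WT was at 1.33-fold the KO level (exact counting interval 1.29 to 1.37) and 1.19-fold the KI level (1.15 to 1.22), and it was at 1.38-fold the KO level (1.31 to 1.44) and 1.10-fold the KI level (1.04 to 1.15) in the last window.

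In the early spermatid windows, WT 1700010B08Rik was at 471, 494, 434, 369 and 302 CPM in order. KO had 205, 141, 91.2, 60.4 and 39.9 CPM, and KI had 242, 154, 92.4, 41.3 and 32.9 CPM. WT was 2.30-fold above KO (2.03 to 2.61) and 1.94-fold above KI (1.72 to 2.19) in the first of these windows, and 7.57-fold (5.91 to 9.83) and 9.17-fold (7.31 to 11.6) above them in the last. Relative to its own last meiotic window, the last early spermatid window held 52.5% of the level in WT against 9.54% in KO and 6.28% in KI. The share was lower in each later window in both mutants, whereas in WT it lay between 52.5% and 85.9%. These values are levels among the RNA of each window, and less of a transcript and more of all others cannot be told apart in them.

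**Figure D1:**
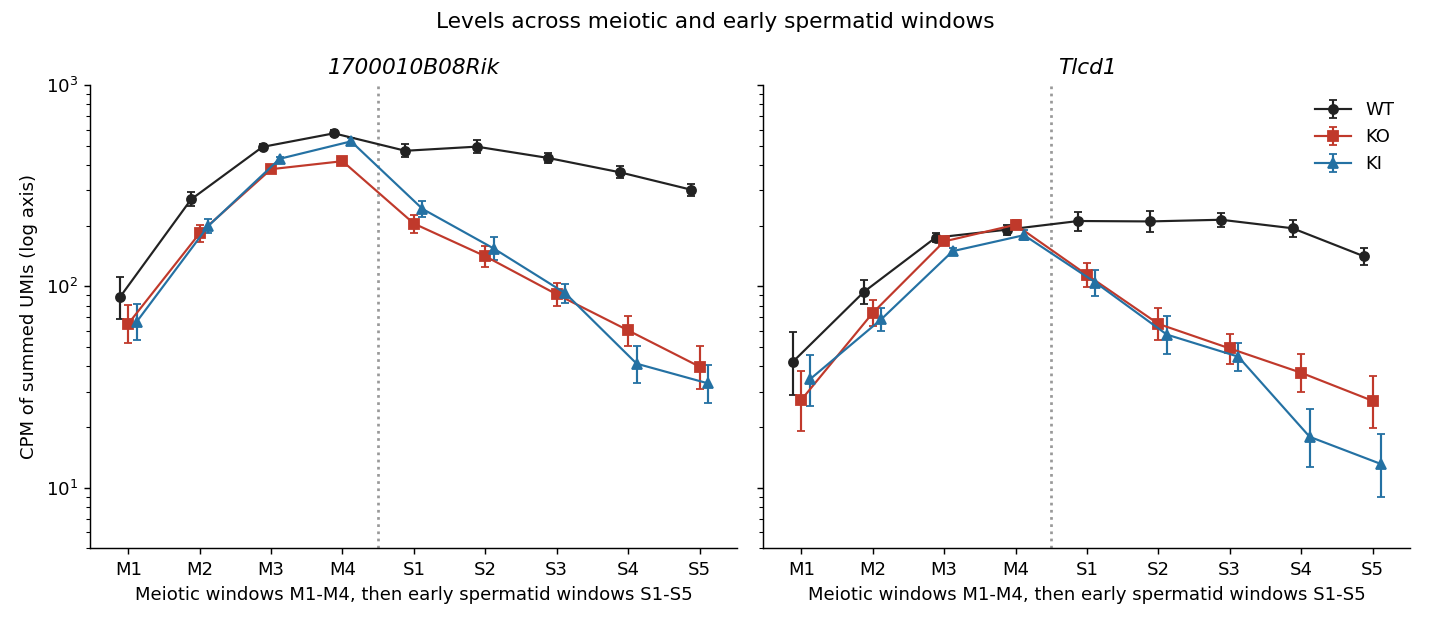
CPM of 1700010B08Rik and Tlcd1 (log axis) in meiotic windows M1 to M4 and early spermatid windows S1 to S5 of the WT, KO and KI libraries, with 95% exact Poisson intervals for counting error and 1 library per genotype. WT 1700010B08Rik is at 575 CPM in M4 against 418 in KO and 525 in KI, and at 302 CPM in S5 against 39.9 in KO and 32.9 in KI.

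Tlcd1 also built up through meiosis in all 3 libraries and then parted. Its level over the meiotic windows was 42.1, 94.0, 174 and 191 CPM in WT, 27.3, 73.7, 167 and 202 CPM in KO, and 34.5, 68.6, 149 and 179 CPM in KI. In the last meiotic window the WT level was 0.945-fold that of KO (0.88 to 1.02) and 1.07-fold that of KI (0.979 to 1.16), and both intervals hold 1. WT was above KI in the second window (1.37-fold, 1.13 to 1.66), in the third (1.17-fold, 1.09 to 1.25) and over all meiotic cells (1.198-fold, 1.14 to 1.26), and above KO in the second (1.28-fold, 1.04 to 1.56) but within counting error over all meiotic cells (1.02-fold, 0.976 to 1.07). The early spermatid windows had 211, 210.0, 214, 194 and 141 CPM in WT. They had 114, 65.1, 49.1, 37.2 and 27.0 CPM in KO and 104, 57.5, 44.7, 17.9 and 13.1 CPM in KI. WT spermatids thus stayed at the late meiotic level through 4 windows (between 102% and 112% of it) and had 73.7% of it in the last, against 13.4% in KO and 7.30% in KI.

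Between the mutants, Tlcd1 was lower in KI than in KO in the mean over the early spermatid windows. The mean difference of 1700010B08Rik there was within the counting error. By window, the KO and KI intervals of Tlcd1 were apart only in the last 2 (37.2 and 27.0 CPM in KO, 17.9 and 13.1 in KI). For 1700010B08Rik the mean hides a change of direction. KI was above KO in the first window (242 against 205 CPM), with intervals that overlap. KI was below KO in the window before the last (41.3 CPM, 33.18 to 50.72, against 60.4 CPM, 50.74 to 71.35). In the last early spermatid window the WT level of Tlcd1 was 5.22-fold that of KO (3.84 to 7.25) and 10.8-fold that of KI (7.54 to 15.9). Over the 5 windows at equal weight, KI minus KO was −0.29 on the log2 scale for Tlcd1 (−0.54 to −0.05 from the opposite ends of both counting intervals) and 0.07 for 1700010B08Rik (−0.11 to 0.24). In meiotic cells as a whole, KI minus KO of Tlcd1 was −0.23 (−0.32 to −0.14), while that of 1700010B08Rik was 0.16 (0.11 to 0.22), with KI the higher. Each mutant is 1 library, and depth differed with it. In the first 4 windows the median was 25298, 23475, 17349 and 15689 UMIs in KI against 9729, 8903, 6797 and 4757 in KO and 10756 to 11301 in WT, and in the last it was 3568, 2996 and 11556. After thinning to 2000 UMIs per cell, which left 205 KI cells with 12 UMIs of 1700010B08Rik and 11 of Tlcd1, KI minus KO was −0.50 for 1700010B08Rik (−2.29 to 1.06) and −1.08 for Tlcd1 (−3.40 to 1.18). Both intervals hold 0, and the smallest KI window then had 8 cells, so these window means are too thin to show a difference of this size. In the larger class of all spermatids under 0.5% of the stage share, thinned likewise (939 KO and 458 KI cells), 13.5% of KO cells (exact binomial interval 11.4 to 15.9%) and 7.86% of KI cells (5.57 to 10.7%) had a UMI of Tlcd1. For 1700010B08Rik the shares were 18.4 and 17.7%. These intervals cover cells within 1 library each and are no replicate check. Nor is this class closely matched, with a mean stage share of 0.128% in KO and 0.0860% in KI. Thinning left out 309 KO and 87 KI cells of it. Whether the 2 genes differ in KI against KO was not tested.

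At a matched stage share, with each stage weighted equally over the 5 stages (up to 10%) that had at least 20 cells in every library, 1700010B08Rik was at 267 CPM in WT (257 to 278), 69.0 in KO (61.9 to 77.3) and 62.9 in KI (51.4 to 77.5). KO differed by −1.94 on the log2 scale (−2.15 to −1.72) and KI by −2.07 (−2.41 to −1.72). Tlcd1 was at 131, 40.4 and 20.9 CPM, and differed by −1.67 in KO (−1.97 to −1.37) and −2.59 in KI (−3.09 to −2.04). Among 3710 genes of at least 50 CPM, 1.35% were at least 2-fold lower in both mutants at a matched share, 1.73% in KO and 2.67% in KI, with medians of 0.04 and 0.03. In KI the difference of Tlcd1 was 6.27-fold at a matched share against 4.24-fold in the sums. The value in the sums (−2.05) lies just inside the matched interval, and the KI stages from 0.5 to 10% held 3, 7, 8 and 24 UMIs of Tlcd1. The other differences were close to those in the sums. Without cell calling, over the same 5 stages, the levels were 289, 151 and 157 CPM for 1700010B08Rik (−0.94 in KO and −0.88 in KI) and 139.6, 76.1 and 61.8 CPM for Tlcd1 (−0.87 and −1.16). With the stage of 10 to 20%, which then also had enough cells, they were −1.02 and −0.96 for 1700010B08Rik and −0.93 and −1.24 for Tlcd1. Thinning to 2000 UMIs moved Tlcd1 in KI to −1.86, and leaving out spermatids of 3 or more meiotic marker UMIs moved it to −1.998. The mean share within the stage of 2 to 5% was 3.40, 3.31 and 3.57% in WT, KO and KI, whereas under 0.5% it was 0.181, 0.128 and 0.0860%, so the first stage is matched less closely. The index genes themselves also differed at a matched share, Tnp2 by 0.37 in KO and 0.40 in KI and Prm1 by −0.13 and −0.06. Prm2 differed by 0.02 and 0.10 and Tnp1 by 0.02 and 0.08. A matched share is thus not the same make-up of index transcripts in each library.

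Along the same stages, WT 1700010B08Rik was at 398 CPM under 0.5% of the stage share, 201 at 0.5 to 1%, 236 at 1 to 2%, 295 at 2 to 5%, 206 at 5 to 10%, 140.4 at 10 to 20% and 46.0 at 20 to 40%. KO had 109, 88.6, 72.7, 47.9, 27.1 and 23.9 CPM up to 20%, and KI had 101, 103, 54.5, 30.3, 25.3 and 24.4 CPM, the last of these from 18 cells. WT stayed at or above 201 CPM until a share of 10%, whereas both mutants were under 110 CPM over the first stage as a whole. Inside that stage they were at 205 CPM (KO) and 242 CPM (KI) in the first early spermatid window, and at 39.9 and 32.9 CPM in the last. WT Tlcd1 was at 192, 118, 125, 142, 79.0, 46.9 and 16.9 CPM over these stages, against 60.0, 48.6, 50.5, 28.4, 14.5 and 8.79 CPM in KO and 43.5, 22.1, 17.4, 10.1, 11.5 and 4.44 CPM in KI. In every stage up to 20% both genes were lower in both mutants than in WT. No spermatid stage of either gene was above the meiotic cells of its own library, except Tlcd1 in WT under 0.5% (192 CPM, 184 to 200, against 168 CPM, 162 to 174). Median depths over the stages of 0.5 to 10% ran from 1184 to 2216 UMIs for WT, from 1315 to 7600 for KO and from 1461 to 5804 for KI, and free RNA was at the levels given above. In WT, 184 of 319, 97 of 442, 85 of 194 and 87 of 177 cells of these stages had at least 2000 UMIs. Subtracting the mean UMIs of an empty barcode from each cell left the matched differences at −2.02 and −2.10 for 1700010B08Rik and −1.73 and −2.66 for Tlcd1.

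**Figure D2:**
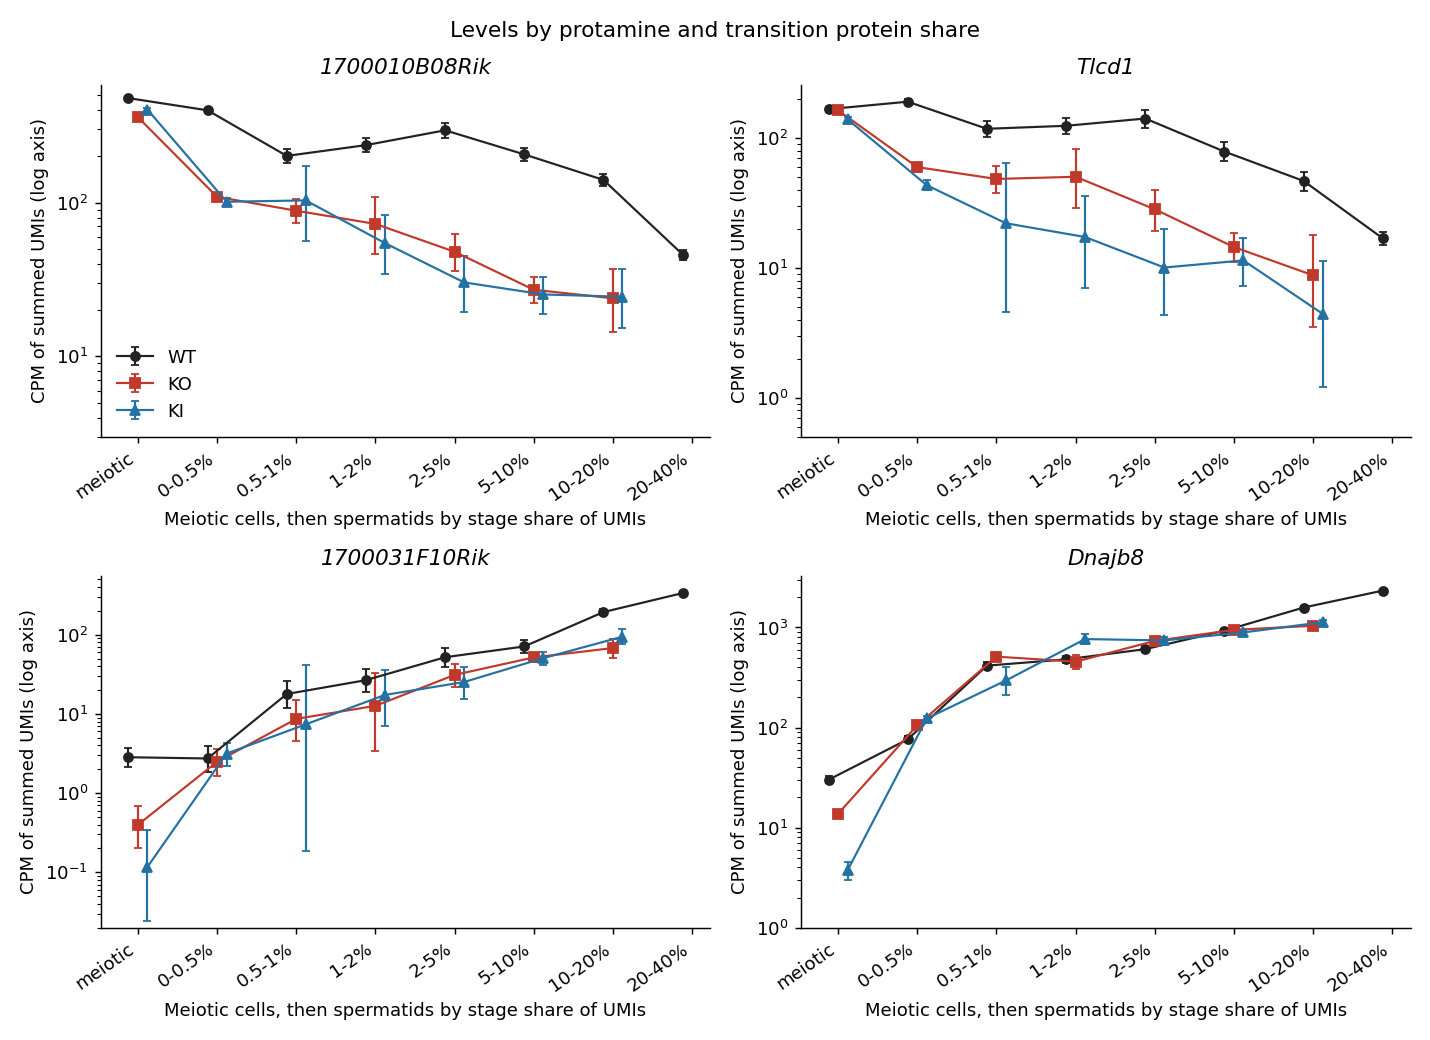
CPM (log axes) of 1700010B08Rik, Tlcd1, 1700031F10Rik and Dnajb8 in meiotic cells and in spermatids by the share of UMIs from Prm1, Prm2, Tnp1 and Tnp2, for classes of at least 15 cells, with 95% exact Poisson intervals (1 library per genotype). 1700010B08Rik and Tlcd1 start high and are lower in KO and KI from the first stage, while 1700031F10Rik starts near 0 and reaches 335 CPM in WT at 20 to 40%.

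The share of cells with a UMI gave the same picture at equal depth. With each cell thinned to 2000 UMIs, 54.7% of WT meiotic cells had a UMI of 1700010B08Rik (exact binomial interval 51.5 to 57.9%), 43.7% in KO (40.9 to 46.6%) and 46.7% in KI (42.5 to 50.9%). Among spermatids under 0.5% of the stage share the values were 52.2% in WT (48.7 to 55.7%), 18.4% in KO (16.0 to 21.1%) and 17.7% in KI (14.3 to 21.5%). Thinning left out 27, 309 and 87 shallower cells, and the shares without thinning were 86.2, 42.6 and 53.2%. For Tlcd1, 26.9% of WT, 23.8% of KO and 24.1% of KI meiotic cells had a UMI after thinning, against 30.8% (27.7 to 34.2%), 13.5% (11.4 to 15.9%) and 7.86% (5.57 to 10.7%) of spermatids under 0.5%, where the shares without thinning were 77.1, 31.4 and 39.1%. Of 10 to 28 cells in the macrophage gate, which should lack germ cell transcripts, 0 of 10 WT, 6 of 26 KO and 2 of 28 KI cells had a UMI of 1700010B08Rik without thinning, at medians of 1524, 2491 and 3248 UMIs. These gates are too small to set a background, since 0 of 10 cells allows a share of up to 30.0%. The Sertoli gate held germ cell transcripts and was not used as one, with 44.8, 34.7 and 32.6% of cells with 1700010B08Rik in WT, KO and KI without thinning. After thinning it was 7 of 15 WT cells (46.7%, 21.3 to 73.4%), 10 of 28 KO cells (35.7%, 18.6 to 55.9%) and 7 of 16 KI cells (43.8%, 19.8 to 70.1%). These shares, with wide intervals that overlap those of the spermatids under 0.5%, lie near the WT value and above the KO and KI values, so a UMI in a cell is not read here as expression by that cell.

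**Figure D3:**
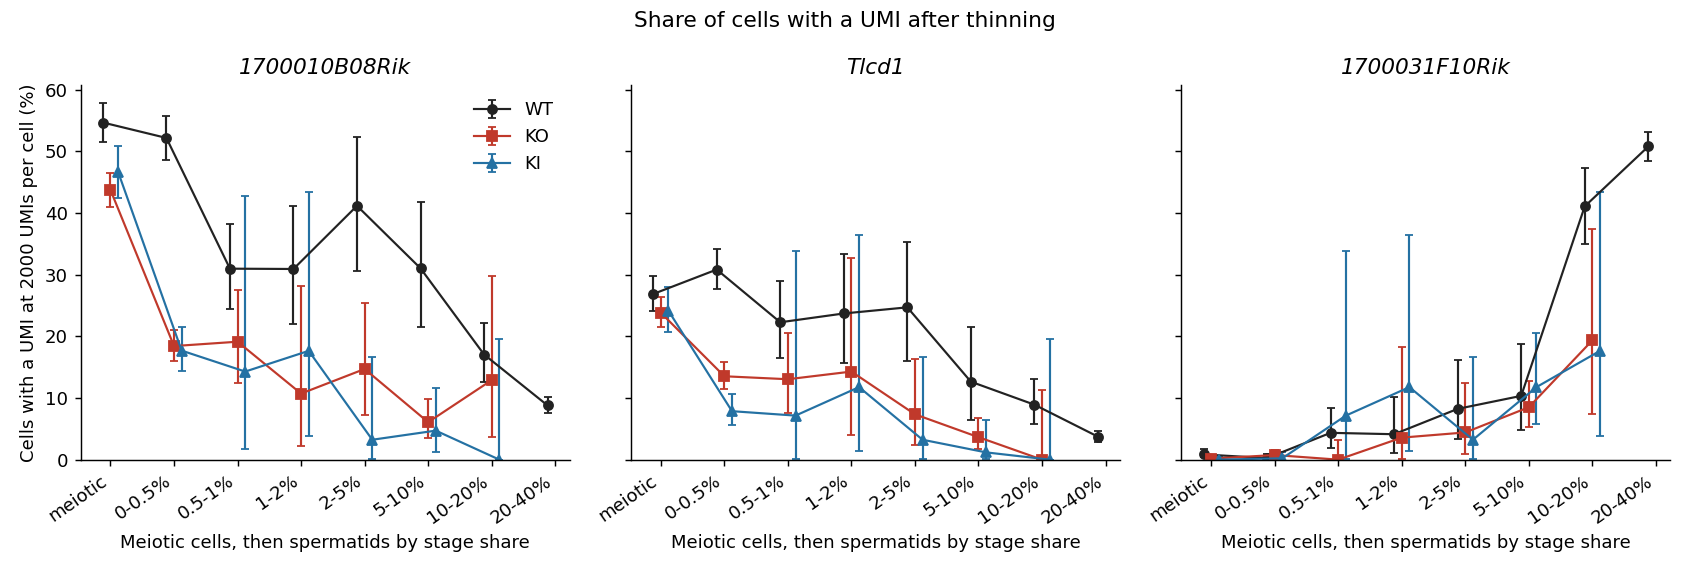
Percent of cells with at least 1 UMI of each gene after thinning to 2000 UMIs per cell, in meiotic cells and by stage share, with 95% exact binomial intervals, for classes of at least 10 thinned cells. Under 0.5% of the stage share, 52.2% of WT cells had 1700010B08Rik against 18.4% in KO and 17.7% in KI, while WT cells with 1700031F10Rik appear mainly above 10%.

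1700031F10Rik followed another course and came up with the protamines. WT meiotic cells held 2.84 CPM, those of KO 0.398 and those of KI 0.117, on 52, 12 and 3 UMIs, and the stage share of these cells, which should hold no protamine transcript, was in the same order at 0.218, 0.0608 and 0.0215%. WT spermatids had 2.73 CPM under 0.5% of the stage share, then 17.8, 26.7, 51.9, 71.0 and 193 CPM up to 20%, 335 CPM at 20 to 40% and 487 CPM in 8 cells over 40%. KO had 2.49, 8.66, 12.6, 31.1, 51.6 and 67.8 CPM up to 20%. KI had 3.15, 7.38, 17.4, 25.2, 50.6 and 94.4 CPM, and its 3 cells of 20 to 40% held 24 UMIs, or 395 CPM (253 to 588). The level was thus higher at each later stage in all 3 libraries. At 0.5 to 1% and 1 to 2%, however, the values rest on 13 and 4 UMIs in KO and on 1 and 7 in KI, so these steps are not resolved in the mutants. The level first exceeded the meiotic level of its own library at 0.5 to 1% in WT and under 0.5% in both mutants, where the meiotic level was lower. The first stage at 50% or more of the highest was 10 to 20% in WT and 5 to 10% in KO and KI, whose highest stages with 20 cells were 10 to 20% and 5 to 10%, so these onsets have different ends.

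The difference of 1700031F10Rik was smaller at a matched stage share than in the sums, but the 2 measures do not cover the same cells. The sums include the stage of 10 to 20%, which the matched mean leaves out. That stage held 580 of the 859 WT UMIs of the gene in the sums, 54 of 350 in KO and 85 of 256 in KI. The part of matching alone was not tested. At a matched share it was at 34.0 CPM in WT (29.9 to 38.6), 21.3 in KO (17.8 to 25.9) and 20.7 in KI (16.2 to 28.2), a log2 difference of −0.65 in KO (−1.07 to −0.20) and −0.69 in KI (−1.21 to −0.08), against −1.15 and −1.36 in the sums. Under 0.5% of the share no difference was detectable at this depth (WT 1.10-fold the KO level, 0.635 to 1.91, and 0.868-fold the KI level, 0.521 to 1.44). At 5 to 10% WT was 1.38-fold above KO (1.09 to 1.72) and 1.40-fold above KI (1.08 to 1.84). At 10 to 20% it was 2.85-fold and 2.05-fold above them, but there the mean stage share was 15.7% in WT against 10.9% in KO and 11.6% in KI, so that stage is not matched inside. With a list of late spermatid genes as stage index in place of the 4 genes, the differences were −1.27 and −1.25, over 4 matched stages in place of 5 and other cells (2150 in WT in place of 1960), so the part of the index alone was not tested.

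Dnajb8, which encodes a testis-enriched DnaJ chaperone and overlaps 1700031F10Rik on the opposite strand, also rose with the stage share, and was not lower in the mutants in the mean over the matched stages. Meiotic cells of WT held 30.0 CPM of it, against 13.7 in those of KO and 3.74 in those of KI, with WT 2.19-fold (1.92 to 2.49) and 8.04-fold (6.46 to 10.1) above the mutants. The stage share of these meiotic cells was in the same order, at 0.218, 0.0608 and 0.0215%. The part of free RNA in this difference was not tested, so it is not read as expression by meiotic cells. Dnajb8 was at 76.2, 416, 480, 608, 928, 1581 and 2337 CPM in the WT spermatid stages. At a matched share Dnajb8 was at 501 CPM in WT against 550.3 in KO and 564 in KI, a log2 difference of 0.13 (0.03 to 0.23) and 0.17 (0.05 to 0.29), whereas in the round spermatid sums it was −0.16 and −0.48. Single stages differed in direction, with KI lower at 0.5 to 1% (WT 1.41-fold above it, 1.02 to 1.99) and both mutants lower at 10 to 20% (1040 CPM in KO and 1129 in KI). In the early spermatid windows in order, Dnajb8 was at 35.5, 16.7, 16.8, 59.7 and 207 CPM in WT, 22.6, 53.1, 37.6, 127 and 342 CPM in KO, and 8.37, 8.03, 16.7, 159 and 401 CPM in KI. It was thus lower in both mutants in the first window and higher in both in the last 2, where its level was greatest. The stage share of the first window was also in the order WT, KO and KI, at 0.133, 0.0829 and 0.0253%. 1700031F10Rik was at 2.07, 2.74 and 3.03 CPM over these windows at equal weight. Whether strand was used in counting is not given in the sources used here, and without it reads of these 2 genes cannot be told apart in their shared exons. RefSeq lists the name 1700031F10Rik as a synonym of Dnajb8, so the values of 1700031F10Rik are uncertain in this respect.

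Across 21 points (meiotic cells and stages of at least 20 cells in the 3 libraries), the log2 levels of 1700010B08Rik and Tlcd1 had a Pearson r of 0.963, against −0.54 and −0.53 with 1700031F10Rik. These points share libraries, depth and the stage order, and they include the WT, KO and KI spermatids whose levels chose the members, so that a high r between genes low in both mutants is in part fixed by that choice and is a description only. The genes most like 1700010B08Rik were 4930455B14Rik (0.972), 4930522O17Rik (0.971) and Tomm22 (0.966). Those most like Tlcd1 were Tomm22 (0.977), Vit (0.965) and 1700010B08Rik. Tomm22, a receptor subunit of the mitochondrial outer membrane import complex, was at 948, 895 and 811 CPM in meiotic cells of WT, KO and KI and at 758, 244 and 195 CPM in round spermatids. The genes most like 1700031F10Rik were Lrrc57 (0.982), 1700027A15Rik (0.982) and Spcs2 (0.976), a subunit of the signal peptidase complex. In round spermatids of WT, KO and KI, Lrrc57 was at 87.5, 40.4 and 45.1 CPM and 1700027A15Rik at 729, 465 and 351 CPM. Spcs2 was at 401, 378 and 331 CPM there. Among the genes of 50 CPM or more in the early spermatid windows, 1700010B08Rik stood second and Tlcd1 seventh, with Znhit3 first. The cells of these windows are part of the round spermatid sums, the contrast that chose the members. A low place here is thus in part fixed by that choice and is a description only.

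**Figure D4:**
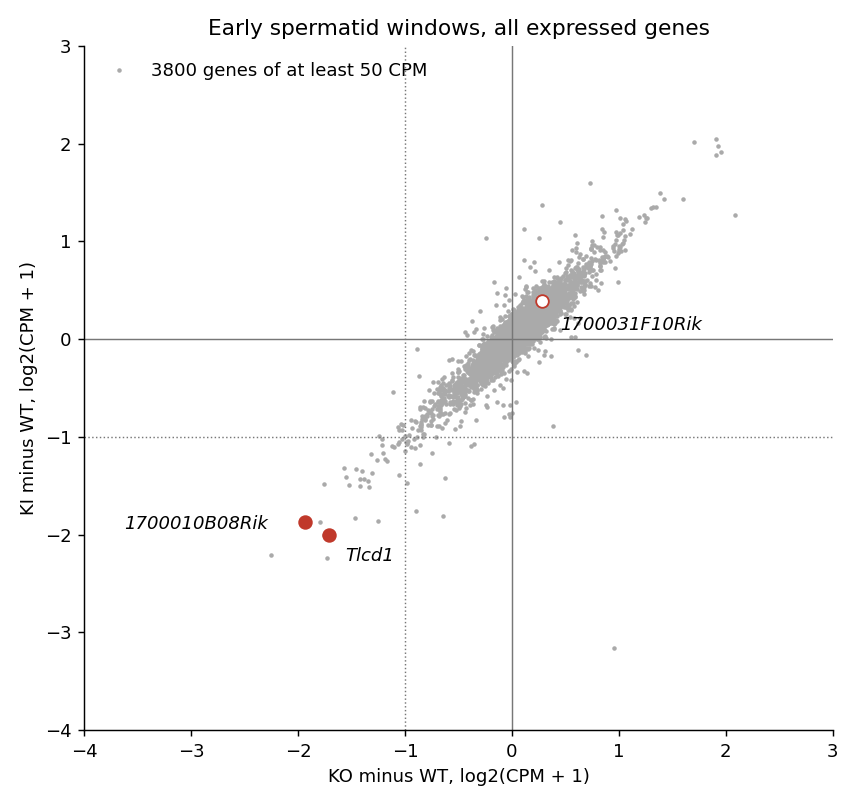
Log2 differences from WT in the early spermatid windows, KO on the x axis and KI on the y axis, for 3800 genes of at least 50 CPM (grey, 2 genes outside the axes), with 1700010B08Rik and Tlcd1 as filled and 1700031F10Rik, which was under 50 CPM, as an open circle (1 library per genotype, both axes share WT, dotted lines at −1). 1700010B08Rik (−1.94, −1.87) and Tlcd1 (−1.71, −2.01) lie at the low end, and 1700031F10Rik is at 0.29 and 0.39, or at −1.17 and −0.60 after thinning to 2000 UMIs. These cells are part of the round spermatid sums that chose the members.

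Over the 5 early spermatid windows at equal weight, WT held 414 CPM of 1700010B08Rik against 107 in KO and 113 in KI, and 194 CPM of Tlcd1 against 58.5 and 47.5. After thinning to 2000 UMIs, 1700010B08Rik differed by −2.14 in KO and −2.65 in KI in place of −1.94 and −1.87, and Tlcd1 by −1.19 and −2.26 in place of −1.71 and −2.01. 1700031F10Rik changed sign with this setting, from 0.29 and 0.39 to −1.17 and −0.60, on 5, 2 and 3 UMIs in WT, KO and KI (29, 25 and 37 without thinning), and with free transcripts subtracted by share it was at 0.97 and 1.19, so no direction is read for it in these windows. Of the 3800 genes, 0.921% were at least 2-fold lower in both mutants, 1.13% in KO and 1.45% in KI, and nothing is read from the members among them. Among the 2575 genes of at least 50 CPM in the last meiotic window that WT kept at 50% or more of that level, 1.67% were at least 2-fold lower in both, 1.98% in KO and 2.45% in KI. Most genes so kept in WT were thus not 2-fold lower in the mutants, and their medians were 0.02 and 0.03. The cut at 50% was set on WT alone, and 1700010B08Rik and Tlcd1 pass it, so these shares are a description only.

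Other genes of like function or name were compared in the round spermatid sums. Of 16 TLC domain genes, 3 had at least 50 CPM there, of which Tlcd1 was chosen on this contrast and passed through its WT level. Of the others, Tram1, which helps translocate proteins into the endoplasmic reticulum, was at 125, 104 and 108 CPM, and Tmem56 was at 66.6, 60.9 and 43.2 CPM. Of 46 genes of phospholipid acyl chains and head groups, 7 passed 50 CPM and 0 were 2-fold lower, against 1.23% of all genes in KO and 1.36% in KI, with medians of 0.23 in KO and 0.20 in KI. Among them Ptdss2, a phosphatidylserine synthase, was at 208, 289 and 279 CPM, and Lpcat3, which adds polyunsaturated chains to phospholipids, was at 113, 132 and 130 CPM. Of 427 RIKEN clone genes of the same name series as 1700010B08Rik, 189 passed, and 9 (4.76%) were 2-fold lower in KO and 9 in KI, a larger share than that of all genes. In the other direction, 3 were 2-fold higher in KO and 5 in KI, and the medians were −0.06 and −0.09. At a matched share 9 and 12 of 200 were lower, against 1.73% and 2.67% of all genes, and 7 and 9 higher. The share of all genes that were 2-fold higher was not counted, so nothing is read from the higher counts of this list. This list holds 1700010B08Rik itself and 1700064M15Rik, another of the lowest genes of this contrast, and the difference of the shares was not tested. Of 17 late spermatid genes, 16 passed and 0 were 2-fold lower, against 1.23% of all genes in KO and 1.36% in KI. With so few genes this count says nothing particular about the late spermatid genes. Their medians were −0.35 and −0.56 in the sums and −0.15 and −0.00 at a matched share.

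Levels of genes beside the members on the chromosome were compared in the same sums. Within 100 kb, 2 genes were counted beside 1700010B08Rik, 4 beside 1700031F10Rik and 11 beside Tlcd1, of which 1, 2 and 3 reached 50 CPM in round spermatids. Of these 6 genes, 0 were 2-fold lower in both mutants, and with 0.803% of all genes so called this says nothing particular about the neighbours. Rab22a, an endosomal GTPase that starts upstream of 1700010B08Rik on the same strand, was at 65.5 CPM in WT against 102 in KO and 94.2 in KI. Gata2, a transcription factor gene, was at 46.0, 61.2 and 61.7 CPM beside 1700031F10Rik. Rpl23a, a ribosomal protein gene on the strand opposite Tlcd1 that shares 506 exonic bases with it, was at 206, 190.1 and 200 CPM. Proca1, downstream of Tlcd1, was at 193, 251 and 232 CPM.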

How the data were processed

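Per the labels, testicular cells of WT, KO and KI mice were profiled by 10x Genomics single-cell RNA-seq, and the authors deposited raw UMI counts per gene and barcode, aligned to mm10 and neither normalized nor filtered. The submitters' processing notes name Cell Ranger 2.1.1 and the file headers name Cell Ranger 4. The members, gene lists and settings were chosen with earlier results of these data known, and the marker windows, the minimum of 5000 UMIs, the matched stages without cell calling and the empty-barcode subtraction were chosen after seeing the data.

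Cells were called from the 3000 expected cells and then by comparison with 45001 barcodes ranked 45000 to 90000 (10000 simulated barcodes, at least 500 UMIs, at most 20000 barcodes, false discovery rate 0.01). Barcodes with over 500 genes and under 10% mitochondrial UMIs were kept, and doublets were not removed. Total counts were 82973909 in WT, 91388296 in KO and 73150373 in KI. Cells with at least 3 marker UMIs and more spermatid than meiotic ones, or at least 5% of the stage share with under 0.1% meiotic marker UMIs, were spermatids (Acrv1, Spaca1, Spaca3, Spaca7, Eqtn, Tssk1, Tssk2, Catsper3 and Catsper4 against Piwil1, Calm2, Sycp1, Sycp3, Hormad1, Tex101 and Pou5f2), and 35, 84 and 11 spermatids lay near this gate (1 marker UMI or 1 percentage point of the share). UMIs were summed per class and library and scaled to CPM of the class total. Log2 differences have 1 CPM added. Stages were limited at 0.5, 1, 2, 5, 10, 20 and 40% of the share, windows asked for at least 10 marker UMIs, and a stage for 20 cells. Intervals are exact Poisson, exact binomial or, for equal-weight means, Fay-Feuer, at 95%, and cover counting error only. The interval of a log2 difference joins the opposite ends of both intervals. A floor is 3 counts. Of 31053 genes, 31011 matched the GENCODE M21 annotation (GRCm38) by identifier.

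Genes named besides the members are the 10 lowest by the selecting contrast, the 3 most alike by Pearson r, listed genes, neighbours within 100 kb, Ddx25 and Dnajb8. On data simulated from WT with 3610 genes, all 53 genes lowered by 2 on the log2 scale and all 48 lowered by 1.5 were past −1 in KO and in KI, and 0 of 3410 unchanged genes were past 1 in either direction. The simulation drew every library from the same WT stage profiles, with counting noise only. It thus checks the calculation and says nothing of spread between mice, libraries, free RNA or stages. There the median shift was taken off before the cut, which was not done for the reported differences. The tools were numba 0.67.0, pandas 2.3.3, scipy 1.17.1 and numpy 2.4.6 under Python 3.11.15.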

Additional observations from a re-analysis of the deposited data

How the results depend on the processing

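No paired analysis was possible because each genotype has 1 library. Under 15 alternatives for the matched differences and 12 for the round spermatid sums, every difference of 1700010B08Rik, 1700031F10Rik and Tlcd1 kept its direction in KO and KI. The values that left the counting interval of the reported one follow, each with KO before KI, and the causes were not tested. Without cell calling, the matched differences were −1.02 and −0.96 for 1700010B08Rik and −0.93 and −1.24 for Tlcd1 over 6 stages, or −0.94 and −0.88, and −0.87 and −1.16, over the 5 stages of the reported value (a setting added after seeing the data), and those in the sums were −1.23 and −1.55, and −1.09 and −1.72, over 7993 KO and 3256 WT barcodes. The stricter gate gave −2.15 and −2.19 for 1700010B08Rik and −1.95 and −2.38 for Tlcd1 in the sums. Leaving out spermatids of 3 or more meiotic marker UMIs removed 892 of 4300 WT, 919 of 2157 KO and 485 of 786 KI spermatids. This cut depends on depth as well as on stage. The matched values were then −1.60 and −1.51 for 1700010B08Rik and −1.998 for Tlcd1 in KI, with −2.19 and −2.55 in KI for the sums. The late gene index gave −1.27 and −1.25 for 1700031F10Rik over 4 stages. Thinning to 2000 UMIs gave −2.25 and −2.58 for 1700010B08Rik and −1.11 and −1.86 for Tlcd1 at a matched share. In the sums it gave −1.62 and −2.28 for 1700010B08Rik, −1.59 and −1.75 for 1700031F10Rik and −1.14 for Tlcd1 in KO. With 10 CPM added, the sums gave −1.81 for 1700010B08Rik in KO, −0.88 and −1.02 for 1700031F10Rik and −1.52 and −1.81 for Tlcd1, smaller by construction. With at least 5000 UMIs per cell, a setting added after seeing the data that leaves 2 matched stages, KO had −2.21 for 1700010B08Rik at a matched share and −2.12, −0.90 and −1.87 for 1700010B08Rik, 1700031F10Rik and Tlcd1 in the sums.

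The matched differences spanned −2.25 to −0.94 in KO and −2.58 to −0.88 in KI for 1700010B08Rik, −1.91 to −0.87 and −2.74 to −1.16 for Tlcd1, and −1.27 to −0.34 and −1.25 to −0.34 for 1700031F10Rik. In the early spermatid windows, 11 alternatives gave −2.14 to −1.85 and −2.65 to −1.79 for 1700010B08Rik and −1.78 to −1.19 and −2.26 to −1.83 for Tlcd1, while 1700031F10Rik, with a change of sign under thinning alone, ran from −1.17 to 0.97 and from −0.60 to 1.19. Without the 4 stage genes in the totals, 1700031F10Rik first reached 50% of its highest level at a share of 20% in WT. At 10 CPM, 163 genes were 2-fold lower in KO, 163 in KI and 110 in both, and with no filter 315, 374 and 217, against 46, 51 and 30. With 1 library per genotype, no setting tests the spread between mice, and the late stages of KO and KI rest on 31 and 18 cells.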
